A study of Mus musculus with 12 samples.

Results

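The genes described here are 10 transcriptional targets of the coactivator YAP and its DNA-binding TEAD partners, taken by their symbol from a table of 39017 mouse genes: Ctgf, Cyr61, Ankrd1, Crim1, Amotl1, Amotl2, Nuak2, Ajuba, Lats2 and Tead1. All 10 were found once each, and all 10 passed the filter on low counts together with 19360 other genes. Their RNA was measured in 12 bulk mammary tumours grown from NIC cells, an ErbB2+ mouse breast cancer line without p66ShcA, the longest protein product of the adaptor gene Shc1. The p66High cells had been engineered to overexpress p66ShcA constitutively, and the p66Low cells had not. Aggressive cells had passed through 2 rounds of growth in mammary fat pads and return to culture, while parental cells had not been selected in this way.

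There were 3 tumours in each of 4 groups: p66High aggressive, p66Low aggressive, p66High parental and p66Low parental. Every tumour arose after 250000 cells in PBS and matrigel were placed in the fourth mammary fat pad of a female FVB/N mouse aged 8 to 12 weeks. All groups therefore share the ErbB2+ NIC cells, and the labels name 1 cell population per group, so an effect of p66ShcA or of selection cannot be told apart from other differences between these populations. Whether the 3 tumours of a group grew in different mice is not stated in the labels. Each value is from a whole tumour, which also holds host cells.

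YAP and its relative TAZ (gene Wwtr1) carry no DNA-binding domain and reach their target genes through TEAD proteins. The Hippo kinase cascade, in which MST kinases (Stk3 and Stk4) activate LATS kinases, phosphorylates YAP and TAZ and keeps them out of the nucleus. Several targets feed back on the pathway: Lats2 and the angiomotins Amotl1 and Amotl2 restrain YAP, while Ajuba and Nuak2 restrain the LATS kinases. YAP activity is controlled mainly through the location and stability of the protein, which RNA levels do not show.

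The sequences before the genes' starts are shown because TEAD proteins recognise the letters GGAATG. A RefSeq window of 250 bases before the transcription start (mouse build GRCm38.p6, the build called mm10) was matched for 7 of the 10 members, and 5 of the 7 held GGAATG or its reverse complement CATTCC. Both strands were searched, each position was counted once and no other motif was searched. The 5 windows are given 5′ to 3′ on the strand of the gene, with the motif in capitals.
Cyr61 (chr3:145649986-145650235, minus strand): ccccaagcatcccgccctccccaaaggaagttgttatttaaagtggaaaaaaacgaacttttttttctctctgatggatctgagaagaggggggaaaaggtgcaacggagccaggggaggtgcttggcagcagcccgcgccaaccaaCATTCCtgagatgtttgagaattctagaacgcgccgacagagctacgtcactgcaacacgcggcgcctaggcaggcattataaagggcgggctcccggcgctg
Ankrd1 (chr19:36119845-36120094, minus strand): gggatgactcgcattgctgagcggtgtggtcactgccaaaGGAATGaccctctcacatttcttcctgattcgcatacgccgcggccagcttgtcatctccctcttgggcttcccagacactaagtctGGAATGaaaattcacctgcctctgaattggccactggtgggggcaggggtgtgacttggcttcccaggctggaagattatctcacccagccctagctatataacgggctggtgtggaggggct
Crim1 (chr17:78199998-78200247, plus strand): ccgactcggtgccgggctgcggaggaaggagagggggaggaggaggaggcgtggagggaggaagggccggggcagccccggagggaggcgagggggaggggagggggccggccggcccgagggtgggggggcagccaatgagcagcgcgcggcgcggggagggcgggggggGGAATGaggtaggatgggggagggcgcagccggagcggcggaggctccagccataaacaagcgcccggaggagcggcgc
Amotl2 (chr9:102717554-102717803, plus strand): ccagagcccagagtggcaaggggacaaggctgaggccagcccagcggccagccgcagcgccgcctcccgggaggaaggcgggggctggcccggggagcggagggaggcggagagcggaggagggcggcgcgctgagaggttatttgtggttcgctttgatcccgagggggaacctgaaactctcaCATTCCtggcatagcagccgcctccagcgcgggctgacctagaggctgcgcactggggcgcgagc
Ajuba (chr14:54577662-54577911, minus strand): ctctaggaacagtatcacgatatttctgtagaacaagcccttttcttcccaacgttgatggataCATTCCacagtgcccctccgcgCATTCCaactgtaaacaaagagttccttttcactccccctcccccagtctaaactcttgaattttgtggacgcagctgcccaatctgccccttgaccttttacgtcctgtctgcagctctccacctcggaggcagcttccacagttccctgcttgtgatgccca

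Ankrd1 held GGAATG at 2 places on its own strand, from 210 to 205 and from 123 to 118 bases before the start. Ajuba held CATTCC at 2 places, from 186 to 181 and from 164 to 159 bases before the start. Cyr61 and Amotl2 held 1 CATTCC each and Crim1 held 1 GGAATG. No match lay in the window of Amotl1 or in either of the 2 windows of Lats2. These windows lie inside the spans of both genes in GENCODE M21, another annotation, as do the windows of Ankrd1 and Amotl2. The bases before the outermost GENCODE start of Amotl1 and Lats2 were not searched. Among all 27025 genes with such a window, 14.4% held the motif at least once and 1.18% at least 2 times. A match describes the letters only and is no measurement of TEAD binding.

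**Figure D1:**
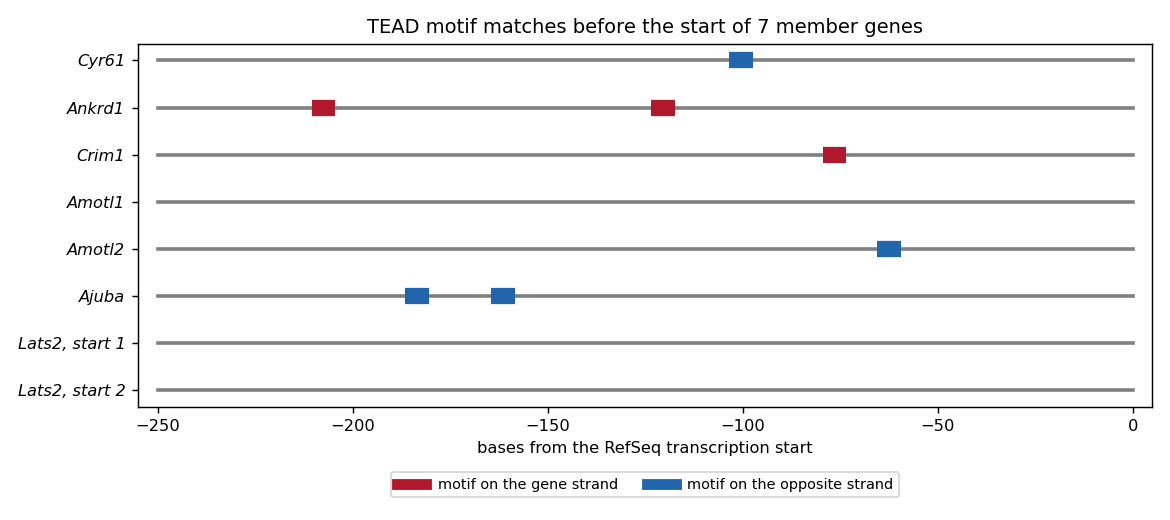
Positions of the TEAD motif in the windows before the transcription start of 7 member genes, in bases from the RefSeq start; red blocks are matches on the strand of the gene and blue blocks matches on the opposite strand. Ankrd1 and Ajuba hold 2 matches each, and Amotl1 and both windows of Lats2 hold none.

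The library totals ranged from 17.4 to 76.1 mega-counts, and 3 counts, used as a detection floor, equalled 0.0394 to 0.156 CPM (counts scaled to a library of 1 mega-count). Shc1 stood at 237, 246 and 774 CPM in p66High aggressive replicates 1, 2 and 3 and 61.0 to 69.9 CPM in p66Low aggressive tumours. In parental tumours Shc1 stood at 223 to 271 CPM in p66High and 59.0 to 69.4 CPM in p66Low. Every tumour thus followed its label. The p66 isoform is not counted apart from the other Shc1 isoforms. The 8 epithelial markers, Epcam and keratins among them, were detected in every tumour, with summed levels of 2200 to 3310 CPM. A list of 10 lymph node stroma and B cell markers summed to 246 and 353 CPM in p66Low aggressive replicates 1 and 2 and 75.8 CPM in p66High parental replicate 3, while 9 tumours had 0.731 to 2.51 CPM. These 3 libraries are called the lymph node rich libraries here. Without them the p66Low aggressive group is 1 tumour, replicate 3, which is assumed to vary like the other groups, so each such value that involves this group rests on that tumour. The p66High parental group is then 2 tumours.

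Per kilobase of exon, the scale on which genes can be compared, Amotl1 had the highest mean level over the 12 tumours at 33.4 ± 5.18 CPM per kilobase (SD, n = 12). Ctgf at 21.4 ± 4.5 and Cyr61 at 16.3 ± 5.47 CPM per kilobase came next, and these neighbours lay within each other's spread. Amotl2 followed at 9.46 ± 0.773 CPM per kilobase. Ajuba (5.29 ± 0.990), Lats2 (4.97 ± 0.929), Nuak2 (4.48 ± 1.19) and Crim1 (3.30 ± 1.46) lay close together on the CPM per kilobase scale, and their order was not separated by the spread between tumours. Tead1 averaged 1.74 ± 0.216 CPM per kilobase. Ankrd1 was lowest at 0.616 ± 0.702 CPM per kilobase, and it was also the member that varied most, with an 11.8-fold range of CPM between its lowest and highest tumour. The narrowest range was 1.30-fold for Amotl2.

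**Figure D2:**
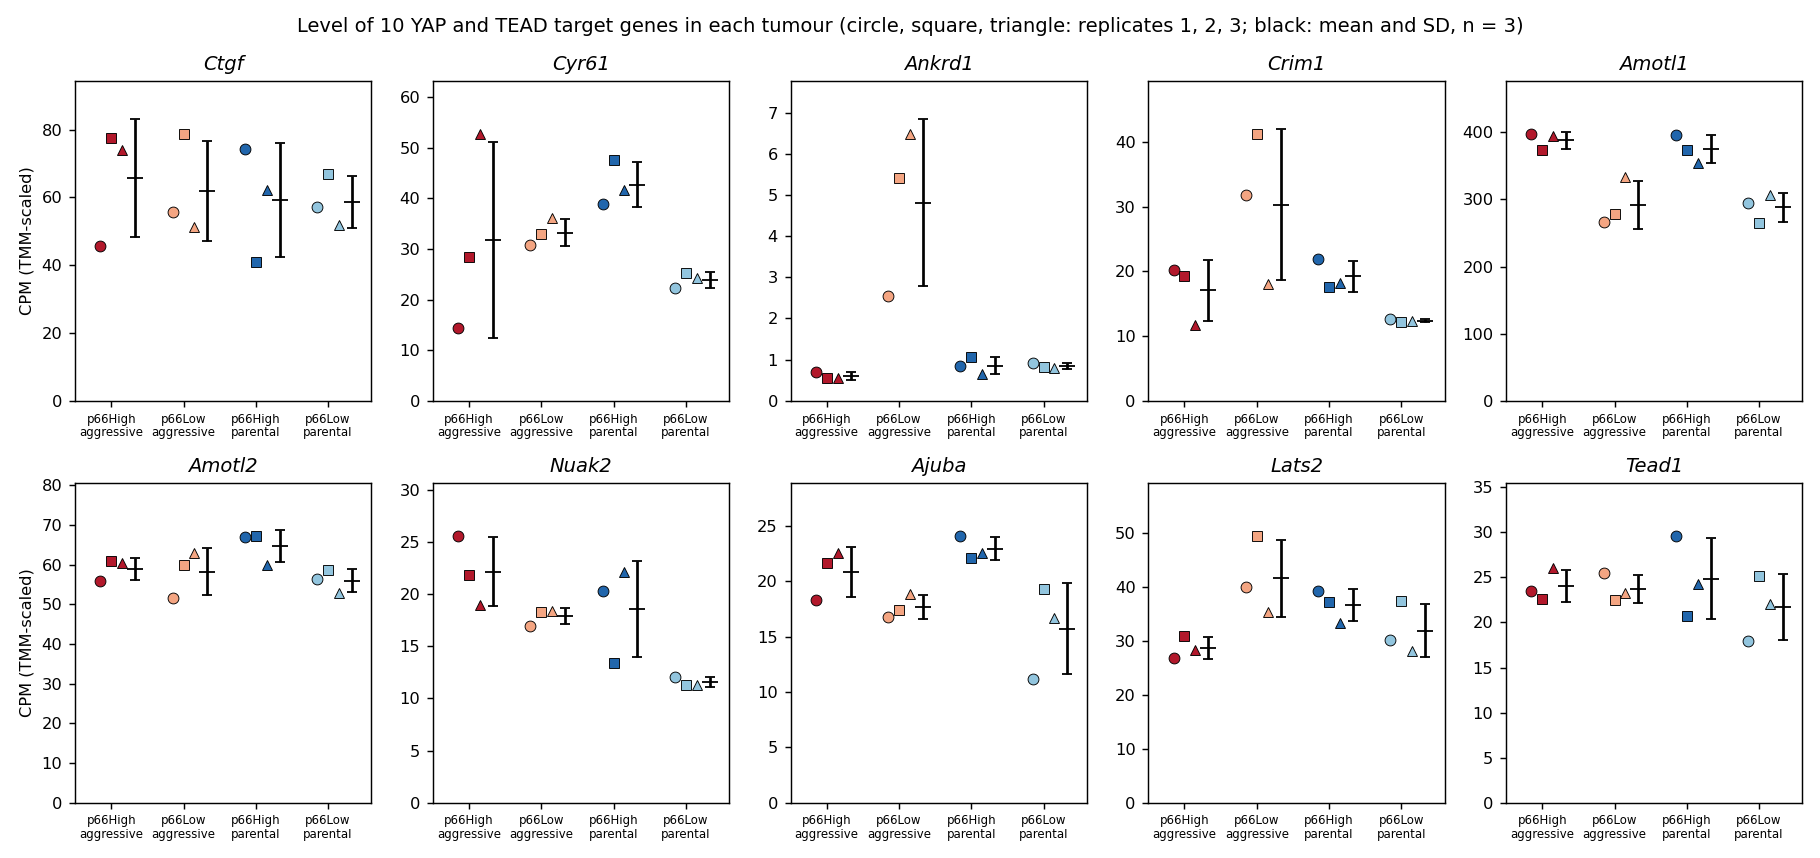
Level of each member in each of the 12 tumours, as CPM over TMM-scaled libraries on linear axes that start at 0; symbols are single tumours and black marks show the mean and SD of 3 tumours. Ankrd1 stands out in p66Low aggressive tumours, at 2.55 to 6.47 CPM, while Ctgf and Tead1 overlap between all groups.

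Ankrd1 encodes a nuclear ankyrin-repeat cofactor known from stretched heart and skeletal muscle and widely used as a reporter of YAP activity (chr19:36111961-36120099, minus strand, mm10). Its level was 0.711, 0.550 and 0.561 CPM in the p66High aggressive tumours and 2.55, 5.40 and 6.47 CPM in the p66Low aggressive tumours. The parental levels were 0.857, 1.06 and 0.656 CPM in the p66High parental tumours and 0.918, 0.812 and 0.806 CPM in the p66Low parental tumours. The 3 p66Low aggressive tumours were the 3 highest of the 12, and the other 3 groups stayed close to 1 CPM or below it.

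Ankrd1 fell by 2.98 on the log2 scale in p66High against p66Low aggressive tumours (SE 0.35, edgeR adjusted p = 0.000374), a ratio of 0.127. Between aggressive and parental p66Low tumours it rose by 2.51 (SE 0.34, edgeR adjusted p = 0.00111), or 5.71-fold, and the groups did not overlap in either comparison. Selection of p66High cells gave a log2 difference of -0.46 (SE 0.35, edgeR adjusted p = 0.469), with overlapping groups. The test of the difference between both selection effects, the interaction, gave -2.98 (SE 0.49, edgeR adjusted p = 0.00537). These comparisons share groups, so the p66Low aggressive tumours enter 3 of these 4 values. The counts behind the gene were low outside that group, at 13 to 28 reads in p66High aggressive and 20 to 50 reads in parental tumours, against 49, 349 and 453 reads in p66Low aggressive tumours.

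Ankrd1 is also a muscle gene, and fat pad tumours can carry neighbouring muscle, lymph node or infiltrating cells. The summed level of 10 skeletal muscle markers was 4.53 to 6.73 CPM in p66High aggressive, 13.2 to 34.1 CPM in p66Low aggressive, 7.08 to 15.1 CPM in p66High parental and 9.72 to 11.1 CPM in p66Low parental tumours, with 0 to 3 of the 10 markers at 0. Of 6 muscle markers tested, 1 fell in p66High against p66Low aggressive tumours, where 12.1% of all tested genes passed as lower. In aggressive against parental p66Low tumours 2 of the 6 rose, where 9.60% of all tested genes passed as higher. These are the directions of Ankrd1, and the other muscle markers tested were not called. The part of muscle in the Ankrd1 values was not tested. The tumour with the highest Ankrd1, p66Low aggressive replicate 3, had 13.2 CPM of muscle markers and 1.88 CPM of lymph node and B cell markers. Without the 3 lymph node rich libraries, with replicate 3 as the single p66Low aggressive tumour, Ankrd1 differed by -3.38 in p66High against p66Low aggressive tumours (edgeR adjusted p = 0.00168) and by 2.92 in aggressive against parental p66Low tumours (edgeR adjusted p = 0.00254).

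Between groups, but not tumour by tumour, T cell markers went in the directions of Ankrd1. Their summed level was 10.4, 5.85 and 3.19 CPM in p66High aggressive, 104, 184 and 34.3 CPM in p66Low aggressive, 5.57, 5.81 and 35.5 CPM in p66High parental, and 4.59, 5.03 and 3.85 CPM in p66Low parental tumours. All 8 T cell markers fell in p66High against p66Low aggressive tumours and all 8 rose in aggressive against parental p66Low tumours. Of 8 macrophage markers, 7 fell in the first of these comparisons and 6 rose in the second. Among all tested genes 12.1% passed as lower in the first and 9.60% as higher in the second. No macrophage marker was at 0 in any tumour, and their summed level was 178 to 346 CPM in p66High aggressive, 436 to 635 CPM in p66Low aggressive, 328 to 433 CPM in p66High parental and 286 to 316 CPM in p66Low parental tumours. Between 0 and 3 T cell markers were at 0 in a tumour. Replicate 3 of the p66High parental group had 35.5 CPM of T cell markers and 0.656 CPM of Ankrd1, the lowest Ankrd1 of its group. Replicate 3 of the p66Low aggressive group had 34.3 CPM of T cell markers and 6.47 CPM of Ankrd1, the highest Ankrd1 of all tumours. The part of these cells in the Ankrd1 values was not tested. In bulk tumours a change in the number of cells of a type and a change in RNA per cell cannot be told apart.

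**Figure D3:**
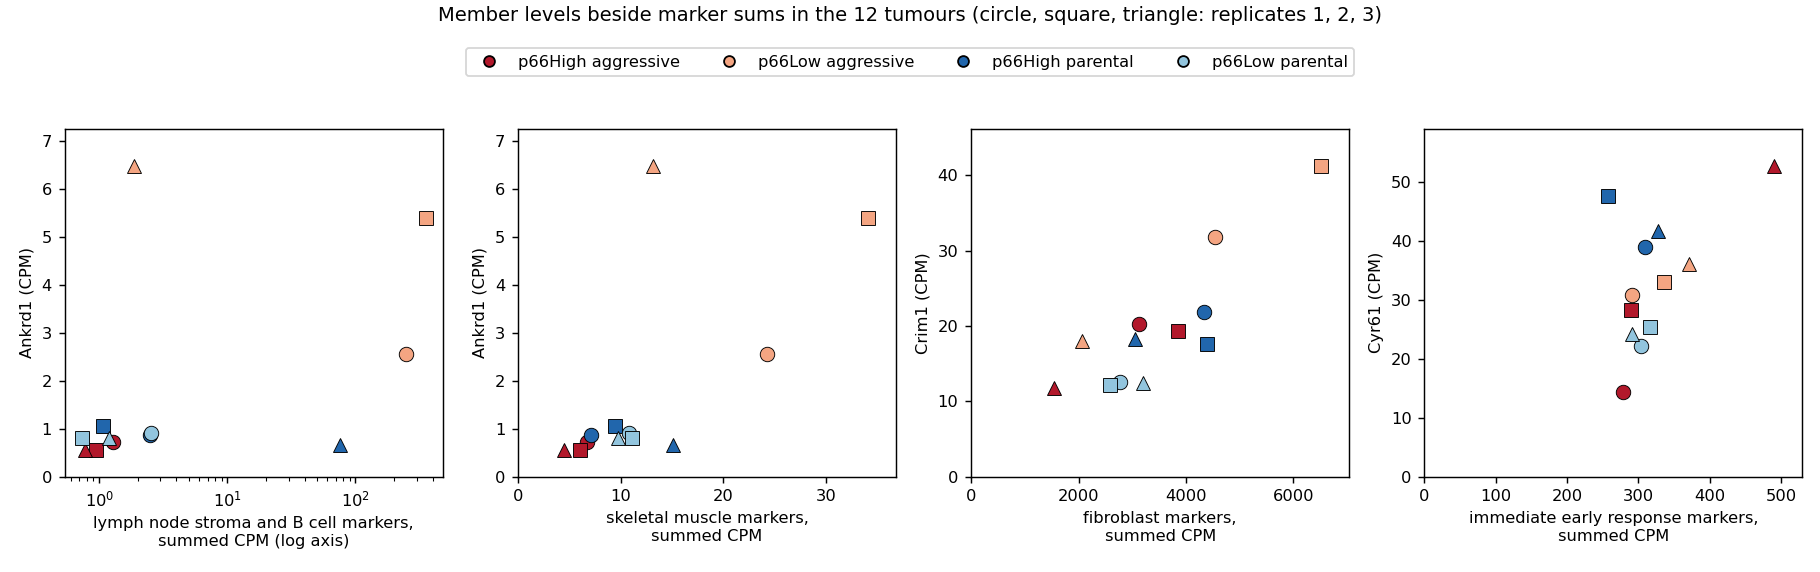
Member level against summed marker level in the 12 tumours, all in CPM; the x axis of the first panel is logarithmic and the others are linear, and symbols are single tumours. In the 2 Ankrd1 panels p66Low aggressive replicate 3 combines the highest Ankrd1 level, 6.47 CPM, with 1.88 CPM of lymph node and B cell markers and 13.2 CPM of muscle markers.

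Ctgf and Cyr61, now also named Ccn2 and Ccn1, encode secreted matrix-associated CCN proteins and are the targets most often read as YAP activity. Ctgf (chr10:24595442-24598683, plus strand) was at 45.6, 77.6 and 73.9 CPM in p66High aggressive, 55.6, 78.6 and 51.2 CPM in p66Low aggressive, 74.4, 41.1 and 62.2 CPM in p66High parental, and 57.1, 66.8 and 51.8 CPM in p66Low parental tumours. Tumours within a group differed, least in the p66Low parental group, and the groups overlapped in all 4 pairwise comparisons. Adjusted p-values of edgeR for Ctgf ran from 0.776 to 0.973 over the 5 comparisons, and the group means lay between 58.6 and 65.7 CPM with SDs of 7.57 to 17.5 CPM (n = 3 each). A noncoding transcript on the opposite strand, Gm15270, shares 23.2% of the exon bases of Ctgf but had only 5 to 24 counts per tumour.

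Cyr61 (chr3:145646976-145649981, minus strand) was at 14.4, 28.3 and 52.6 CPM in p66High aggressive, 30.7, 32.9 and 36.0 CPM in p66Low aggressive, 38.9, 47.5 and 41.7 CPM in p66High parental, and 22.2, 25.3 and 24.2 CPM in p66Low parental tumours. The p66High aggressive group held both the lowest and the highest tumour of the 12, and its SD of 19.3 CPM compared with 1.56 to 4.4 CPM in the other groups. In parental tumours p66High and p66Low did not overlap, with a log2 difference of 0.84 (SE 0.33) that missed the threshold (edgeR adjusted p = 0.150). It passed when p66High aggressive replicate 1 or 3 was left out, tumours that this comparison does not contrast (edgeR adjusted p = 0.0251 and 0.0260, log2 0.84 in both). It also passed when only the 6 parental tumours were fitted (adjusted p = 0.00635).

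Selection gave Cyr61 a log2 difference of 0.48 in p66Low tumours (SE 0.33, edgeR adjusted p = 0.363, and 0.0240 when only the 6 p66Low tumours were fitted) and -0.43 in p66High tumours (adjusted p = 0.468). With p66High aggressive replicate 3 left out, the p66High difference was -1.01 (edgeR adjusted p = 0.0420) and the interaction -1.51 (adjusted p = 0.0164), against -0.91 (SE 0.46, adjusted p = 0.221) with all tumours. That replicate also had the highest summed level of 12 immediate early response genes, at 491 CPM. The other p66High aggressive tumours had 279 and 290 CPM and the remaining groups 257 to 371 CPM. The lowest sum, 257 CPM, was in p66High parental replicate 2, whose Cyr61 of 47.5 CPM was the second highest of all tumours. Immediate early response genes respond within minutes to serum and handling, and Cyr61 is itself known as a serum-induced gene. The p66High aggressive replicate 3 also had the highest Shc1 level of all tumours, 774 CPM. The part of the immediate early genes and of Shc1 in the Cyr61 values was not tested.

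Likeness of pattern was measured as the root mean square distance in log2 CPM, after centring each gene on its mean over the 12 tumours, among 19369 other tested genes. For Ctgf the closest genes were Frmd6 (0.19), Kmt2a (0.20) and Rbms2 (0.20), distances to be read against Ctgf's own spread of 0.30 about its mean. For Cyr61 they were Tspan33 (0.28), Junb (0.28) and the pseudogene Gm14200 (0.31), against a spread of 0.50. For Ankrd1 they were Nod2 (0.35), Ube2l6 (0.36) and Trim30d (0.36), against a spread of 1.14. The 3 genes closest to Ankrd1 were highest in p66Low aggressive tumours, such as Nod2 at a mean of 17.4 CPM there and 4.0 to 5.34 CPM in the other groups. This follows from their choice by likeness to Ankrd1 over the same tumours and is no separate result.

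Crim1 encodes a membrane protein with cysteine-rich repeats that binds bone morphogenetic proteins (chr17:78200248-78376592, plus strand). It was at 20.3, 19.3 and 11.7 CPM in p66High aggressive, 31.8, 41.2 and 18.0 CPM in p66Low aggressive, 21.9, 17.6 and 18.2 CPM in p66High parental, and 12.6, 12.2 and 12.4 CPM in p66Low parental tumours. The p66Low parental tumours were low and nearly identical, and the p66Low aggressive tumours were all above them but spread widely. Crim1 rose in aggressive against parental p66Low tumours by 1.29 (SE 0.27, edgeR adjusted p = 0.00931), or 2.44-fold, without overlap.

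In p66High against p66Low aggressive tumours Crim1 fell by 0.82 (SE 0.27, edgeR adjusted p = 0.0492), although the groups overlapped, and the interaction was -1.46 (SE 0.38, edgeR adjusted p = 0.0306). In parental tumours the log2 difference of p66High against p66Low was 0.63 (SE 0.27, edgeR adjusted p = 0.187, and 0.0259 when only the 6 parental tumours were fitted), with no overlap. Replicates 1 and 2 of the p66Low aggressive group, where Crim1 was highest, are the lymph node rich libraries of that group. Without the 3 such libraries the differences were 0.53 for p66Low selection (edgeR adjusted p = 0.354), -0.06 for aggressive tumours (adjusted p = 0.940) and -0.74 for the interaction (adjusted p = 0.330).

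The p66Low selection call of Crim1 held in each of 12 fits that left out 1 tumour, with log2 values of 1.00 to 1.55. The call in aggressive tumours was lost in 11 of these 12 fits, kept only without p66Low aggressive replicate 3, and its log2 value was -0.53 without p66Low aggressive replicate 2 (edgeR adjusted p = 0.228). The interaction was lost in 9 of 12, at an adjusted p of up to 0.0769. Both were also lost when tumours sharing a title number were summed (edgeR adjusted p = 0.0870 and 0.0747) and by limma-voom. The call in aggressive tumours was lost as well when only the 6 aggressive tumours were fitted (edgeR adjusted p = 0.136). Scaling by library size alone and TMM scaling without chromosomes 1 and 15 also ended that call. Fibroblast markers, 10 of 10 detected, summed to 1540 to 3850 CPM in p66High aggressive, 2060 to 6520 CPM in p66Low aggressive, 3050 to 4400 CPM in p66High parental and 2590 to 3200 CPM in p66Low parental tumours. The tumour with the most Crim1, p66Low aggressive replicate 2, also had the highest fibroblast sum. Its macrophage, T cell, lymph node and B cell, and skeletal muscle sums were the highest of all tumours as well. The part of fibroblasts or of these other cells in the Crim1 values was not tested.

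Amotl1 and Amotl2 encode angiomotin-like scaffold proteins that bind YAP and hold it in the cytoplasm. Amotl1 (chr9:14541966-14645056, minus strand) was at 397, 374 and 394 CPM in p66High aggressive, 266, 278 and 333 CPM in p66Low aggressive, 396, 374 and 354 CPM in p66High parental, and 294, 265 and 307 CPM in p66Low parental tumours. All 6 p66High tumours lay above all 6 p66Low tumours. The rise was 0.41 in aggressive tumours (SE 0.10, edgeR adjusted p = 0.0149) and 0.38 in parental tumours (SE 0.10, edgeR adjusted p = 0.0437), or 1.33-fold and 1.30-fold.

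Both Amotl1 calls lay near the threshold. That in aggressive tumours was lost without p66Low aggressive replicate 1 or 2 or p66High aggressive replicate 3 (edgeR adjusted p = 0.0539, 0.0681 and 0.05004), and the log2 difference was 0.24 (adjusted p = 0.426) without the lymph node rich libraries. That in parental tumours was lost in 9 of the 12 fits without 1 tumour, with log2 values of 0.32 to 0.43 and edgeR adjusted p-values of up to 0.152, the highest without p66High parental replicate 1, and without the lymph node rich libraries (0.42, adjusted p = 0.0721), with tumours sharing a title number summed (adjusted p = 0.117) or with only the 6 parental tumours fitted (adjusted p = 0.0687). Amotl2 (chr9:102716672-102733418, plus strand) showed little variation, at 51.6 to 67.2 CPM in the 12 tumours. Its 3 p66High parental tumours, at 67.0, 67.2 and 60.0 CPM, stood above the p66Low parental tumours at 56.3, 58.7 and 52.9 CPM, by 0.21 on the log2 scale (SE 0.09, edgeR adjusted p = 0.205).

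Nuak2 encodes a kinase of the AMPK-related family that lowers LATS activity (chr1:132316126-132333488, plus strand). It was at 25.6, 21.9 and 19.0 CPM in p66High aggressive, 17.0, 18.3 and 18.4 CPM in p66Low aggressive, 20.3, 13.4 and 22.1 CPM in p66High parental, and 12.1, 11.3 and 11.3 CPM in p66Low parental tumours. The p66Low parental tumours were the 3 lowest. Nuak2 rose by 0.69 in p66High against p66Low parental tumours (SE 0.17, edgeR adjusted p = 0.0318) and by 0.63 in aggressive against parental p66Low tumours (SE 0.17, edgeR adjusted p = 0.0291). In p66High against p66Low aggressive tumours its difference was 0.31 without overlap (edgeR adjusted p = 0.241).

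Nuak2 lies on chromosome 1, where 1133 tested genes had a median log2 difference of 0.44 in p66High against p66Low parental and 0.37 in p66High against p66Low aggressive tumours. Relative to that median Nuak2 differed by 0.25 and -0.06. In aggressive against parental p66Low tumours the chromosome median was 0.00 and the Nuak2 difference relative to it stayed at 0.63. The parental call was lost in 6 of 12 fits without 1 tumour (edgeR adjusted p up to 0.116, without p66High parental replicate 3) and the p66Low selection call in 5 of 12 (up to 0.0885, without p66Low aggressive replicate 2). Without the lymph node rich libraries the log2 values were 0.55 (edgeR adjusted p = 0.160) and 0.66 (adjusted p = 0.186). The parental call was also lost when only the 6 parental tumours were fitted (adjusted p = 0.0665). By the same measure of likeness as above, the 3 genes closest to Nuak2 (Lpgat1, Ppp1r15b and Degs1) and the 3 closest to Amotl1, itself on chromosome 9 (Copa, Mrpl30 and Acbd3), are all on chromosome 1, which holds 5.85% of the genes tested. These 6 genes were singled out after their values were seen.

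Ajuba encodes a LIM-domain protein that binds and restrains LATS kinases at cell junctions (chr14:54567472-54577558, minus strand). It was at 18.3, 21.7 and 22.6 CPM in p66High aggressive, 16.8, 17.4 and 18.9 CPM in p66Low aggressive, 24.1, 22.1 and 22.6 CPM in p66High parental, and 11.2, 19.3 and 16.7 CPM in p66Low parental tumours. The parental groups did not overlap and differed by 0.55 on the log2 scale for p66High against p66Low (SE 0.17), just short of the threshold (edgeR adjusted p = 0.0758). The same difference passed by DESeq2 (adjusted p = 0.0218), by limma-voom (adjusted p = 0.0408) and by edgeR without p66Low parental replicate 2 (0.72, adjusted p = 0.0214). In aggressive tumours it was 0.24 (edgeR adjusted p = 0.363), with overlap.

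Lats2 encodes 1 of the paired LATS kinases that phosphorylate YAP (chr14:57689662-57758388, minus strand). It was at 26.8, 30.9 and 28.3 CPM in p66High aggressive, 40.0, 49.4 and 35.4 CPM in p66Low aggressive, 39.2, 37.2 and 33.3 CPM in p66High parental, and 30.1, 37.4 and 28.1 CPM in p66Low parental tumours. The p66High aggressive tumours were all below the p66Low aggressive and the p66High parental tumours. Lats2 fell by 0.54 in p66High against p66Low aggressive tumours (SE 0.14, edgeR adjusted p = 0.0196), and the interaction was -0.74 (SE 0.20, edgeR adjusted p = 0.0353). Selection gave 0.39 in p66Low tumours (SE 0.14, edgeR adjusted p = 0.0847) and -0.35 in p66High tumours (SE 0.14, adjusted p = 0.169), neither past the threshold.

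The Lats2 difference in aggressive tumours was lost without p66Low aggressive replicate 2 (-0.39, edgeR adjusted p = 0.0939), p66High aggressive replicate 1 (adjusted p = 0.0700) or p66High aggressive replicate 3 (adjusted p = 0.0576). It was -0.58 (edgeR adjusted p = 0.0539) with tumours sharing a title number summed and -0.29 (adjusted p = 0.420) without the lymph node rich libraries. The Lats2 interaction was -0.75 (edgeR adjusted p = 0.0943) and -0.56 (adjusted p = 0.248) under these settings. The interaction was lost in 8 of 12 fits without 1 tumour, with log2 values of -0.59 to -0.78 in those fits and an adjusted p of up to 0.0887. The p66Low selection difference passed without p66Low parental replicate 2 (0.53, edgeR adjusted p = 0.0378) or p66Low aggressive replicate 3 (0.49, adjusted p = 0.0391). In GENCODE M21, 42.4% of the exon bases of Lats2 also belong to the same-strand gene Gm49361, which is not a row of the count table used here.

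Tead1 encodes a DNA-binding partner of YAP (chr7:112679318-112906807, plus strand). It was at 23.5, 22.6 and 26.1 CPM in p66High aggressive, 25.5, 22.5 and 23.3 CPM in p66Low aggressive, 29.6, 20.7 and 24.3 CPM in p66High parental, and 17.9, 25.2 and 22.1 CPM in p66Low parental tumours. The groups overlapped in all 4 pairwise comparisons, and edgeR adjusted p-values ran from 0.470 to 0.942 over the 5 comparisons. The coactivator genes themselves passed in none of the 5 comparisons. Yap1 averaged 214 ± 5.34 CPM in p66High aggressive, 183 ± 26.5 CPM in p66Low aggressive, 197 ± 16.3 CPM in p66High parental and 187 ± 11.7 CPM in p66Low parental tumours (SD, n = 3 each), with edgeR adjusted p-values of 0.166 to 0.871. Wwtr1 averaged 122 ± 8.07 CPM in p66High aggressive, 113 ± 15.8 CPM in p66Low aggressive, 119 ± 11.1 CPM in p66High parental and 99.3 ± 8.62 CPM in p66Low parental tumours (SD, n = 3 each; edgeR adjusted p of 0.208 to 0.878). Only its parental groups did not overlap.

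Counted together, 4 of the 10 members passed in p66High against p66Low aggressive tumours, Amotl1 higher and Ankrd1, Crim1 and Lats2 lower, where 21.0% of all tested genes passed, 8.92% as higher and 12.1% as lower. Groups did not overlap for Amotl1 and Nuak2 on the higher side, as for 19.4% of all tested genes, and for Ankrd1 and Lats2 on the lower side, as for 18.7%. The median log2 difference of the members was 0.02 and that of all tested genes 0.02. In p66High against p66Low parental tumours 2 passed, Amotl1 and Nuak2, both higher, where 8.08% of all tested genes passed and 3.98% passed as higher. Fitting only the 6 parental tumours also called 2, but these were Cyr61 and Crim1, while Amotl1 and Nuak2 missed the threshold (edgeR adjusted p = 0.0687 and 0.0665). With all tumours fitted, 6 members, Cyr61, Crim1, Amotl1, Amotl2, Nuak2 and Ajuba, had p66High tumours entirely above p66Low tumours, as did 15.6% of all tested genes, and the median was 0.29 against -0.01 over all tested genes. Epithelial marker sums were lower in these p66High tumours, at 2200 to 2620 against 2700 to 3190 CPM. Pericyte and smooth muscle (383 to 437 against 309 to 357 CPM) and endothelial sums (208 to 247 against 153 to 167 CPM) were higher. Macrophage and T cell sums were higher too, all without overlap. Fibroblast, adipocyte, skeletal muscle and lymph node sums overlapped, and no single marker passed. The part of cell composition in the member values was not tested.

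In aggressive against parental p66Low tumours 3 of 10 passed, Ankrd1, Crim1 and Nuak2, all higher, where 16.6% of all tested genes passed and 9.60% passed as higher. The median was 0.28 for the members and -0.02 for all tested genes, and 4 members, Cyr61 with the 3 called, did not overlap between groups, as did 16.2% of all tested genes in that direction. In aggressive against parental p66High tumours 0 of 10 passed by edgeR, by DESeq2 or by limma-voom, where 5.94% of all tested genes passed by edgeR. There 1 member, Lats2, had an unadjusted edgeR p under 0.05 and was the only member without overlap, on the lower side, against 16.0% of all tested genes, and the median was -0.13. The interaction was called for 3 members, Ankrd1, Crim1 and Lats2, all negative, against 12.4% of all tested genes in either direction and 7.99% in the negative one. The comparisons share groups and are not independent of each other. Without the lymph node rich libraries, which leaves 1 p66Low aggressive tumour, Ankrd1 was the 1 member called in each of the aggressive, p66Low selection and interaction comparisons, and none was called by edgeR in parental tumours (5 members at an unadjusted p under 0.05).

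**Figure D4:**
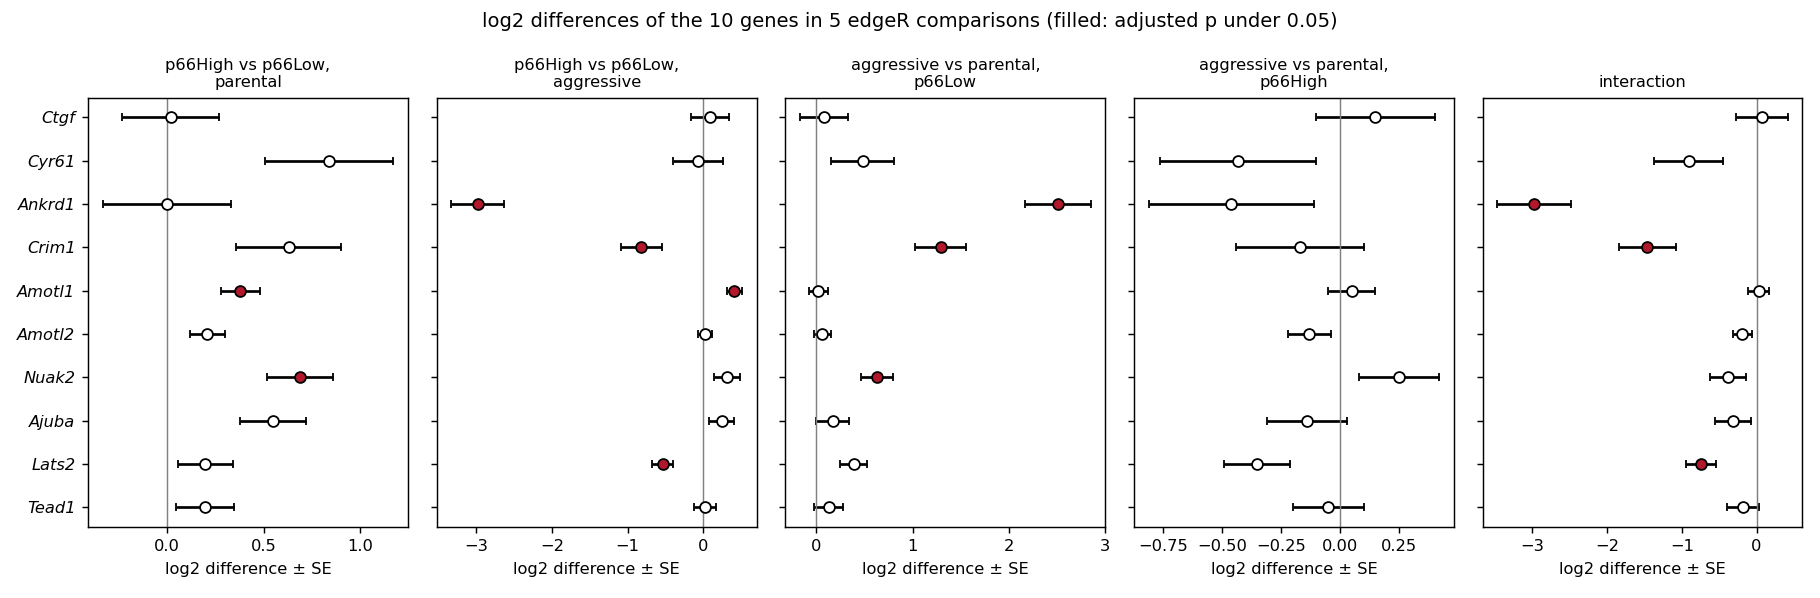
Log2 differences of the 10 members in 5 edgeR comparisons, with bars of 1 SE; filled points have an adjusted p under 0.05 over all genes tested, and each panel has its own axis. Ankrd1 lies at -2.98 in aggressive tumours and 2.51 in p66Low selection, and no point is filled in the panel of p66High selection.

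Within single tumours the members differed in direction. After centring each gene on its mean over the 12 tumours, the median over the 10 members was -0.07, 0.05 and 0.16 on the log2 CPM scale in p66High aggressive, 0.00, 0.10 and 0.03 in p66Low aggressive, 0.26, 0.03 and 0.05 in p66High parental, and -0.37, -0.16 and -0.25 in p66Low parental tumours. The p66Low parental tumours were the 3 lowest. The tumours with the highest level of a member were spread over 6 libraries, with p66Low aggressive replicate 2 highest for Ctgf, Crim1 and Lats2.

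A list of 15 further genes of the published YAP signature was read in the same fit, of which 14 were tested and Foxf2 was not. Of these, 6 passed in p66High against p66Low aggressive tumours (2 higher, 4 lower, median -0.15), and 2 in p66High against p66Low parental tumours (1 higher, 1 lower, median 0.12). For selection, 5 passed in p66Low (3 higher, 2 lower, median 0.35) and 3 in p66High (2 higher, 1 lower, median -0.11), and 2 passed in the interaction (1 positive, 1 negative, median -0.43). Of the 14 tested, these were 42.9%, against 21.0% of all tested genes, in aggressive tumours and 14.3%, against 8.08%, in parental tumours. For selection they were 35.7%, against 16.6%, in p66Low and 21.4%, against 5.94%, in p66High. For the interaction they were 14.3%, against 12.4%. These shares count higher and lower calls together.

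Nt5e, which encodes the surface enzyme CD73 that makes adenosine, was at 27.3, 16.7 and 24.5 CPM in p66High aggressive, 21.8, 27.9 and 28.4 CPM in p66Low aggressive, 58.0, 56.3 and 41.2 CPM in p66High parental, and 17.6, 12.3 and 14.9 CPM in p66Low parental tumours. Its p66High parental tumours were the 3 highest and its p66Low parental tumours included the lowest. Nt5e rose by 1.79 in p66High against p66Low parental tumours (SE 0.21, edgeR adjusted p = 0.000637) and fell by 1.18 in aggressive against parental p66High tumours (SE 0.21, edgeR adjusted p = 0.00727), and the interaction was -1.98 (SE 0.29, edgeR adjusted p = 0.00319). These 3 calls held in every fit without 1 tumour and without the lymph node rich libraries. In aggressive against parental p66Low tumours Nt5e rose by 0.80 (edgeR adjusted p = 0.0218), a call lost in 4 of 12 fits without 1 tumour. It was also lost, at 0.92, without the lymph node rich libraries, which leaves 1 p66Low aggressive tumour.

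Asap1, an Arf GTPase regulator, was at 15.6, 17.8 and 18.0 CPM in p66High aggressive tumours and 35.7, 38.8 and 29.1 CPM in p66Low aggressive tumours, without overlap. It fell by 1.01 in p66High against p66Low aggressive tumours (SE 0.14, edgeR adjusted p = 0.000752) and rose by 0.98 in aggressive against parental p66Low tumours (SE 0.14, edgeR adjusted p = 0.00130), where the p66Low parental tumours were at 17.3, 16.8 and 18.4 CPM. Without the lymph node rich libraries these values were -0.75 (edgeR adjusted p = 0.0489) and 0.73 (adjusted p = 0.0684). Gadd45a, a stress and DNA damage response gene, went the other way, with a rise of 1.29 in p66High against p66Low aggressive tumours (SE 0.19, edgeR adjusted p = 0.00111) and a fall of 0.73 in p66Low selection (SE 0.19, adjusted p = 0.0224). Without the lymph node rich libraries the Gadd45a values were 1.05 (edgeR adjusted p = 0.0679) and -0.48 (adjusted p = 0.410), with 1 p66Low aggressive tumour. The second call was also lost in 3 of 12 fits without 1 tumour and when only the 6 p66Low tumours were fitted (adjusted p = 0.0750).

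Tgfb2, a transforming growth factor ligand, was at 60.0, 75.4 and 72.3 CPM in p66High aggressive and 39.0, 28.4 and 34.3 CPM in p66High parental tumours, without overlap. It rose by 1.03 (SE 0.16, edgeR adjusted p = 0.00399). In p66High against p66Low parental tumours it fell by 0.70 (SE 0.16, edgeR adjusted p = 0.0186), with p66Low parental tumours at 61.2, 46.2 and 58.0 CPM. That second call was lost in 4 of 12 fits without 1 tumour and, at -0.70, without the lymph node rich libraries (edgeR adjusted p = 0.0695).

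**Figure D5:**
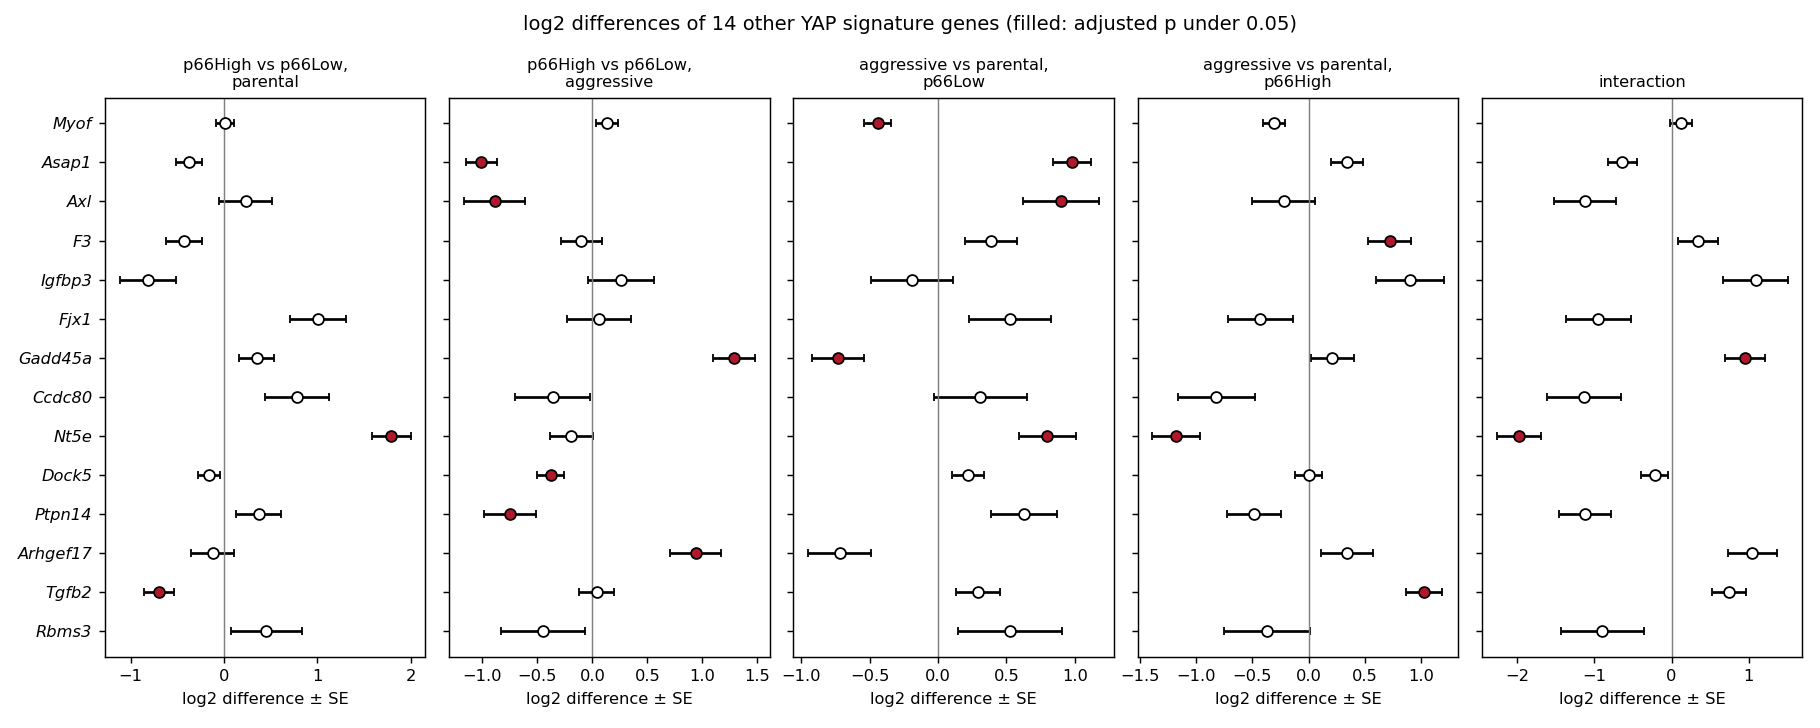
Log2 differences of 14 further YAP signature genes in the same 5 edgeR comparisons, with bars of 1 SE; filled points have an adjusted p under 0.05 over all genes tested, and each panel has its own axis. Nt5e is filled in 4 panels, on the positive side in 2 and on the negative side in 2.

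Of 28 other Hippo pathway genes 26 were tested, Vgll1 and Vgll2 being too low. In p66High against p66Low 4 passed in aggressive tumours (2 higher, 2 lower) and 3 in parental tumours (1 higher, 2 lower). For selection, 4 passed in p66Low (3 higher, 1 lower) and 2 in p66High (1 higher, 1 lower), and 3 passed in the interaction (all negative). Of the genes tested, these were 15.4%, where 21.0% of all tested genes passed, in aggressive tumours and 11.5%, against 8.08%, in parental tumours. For selection they were 15.4%, against 16.6%, in p66Low and 7.69%, against 5.94%, in p66High, and 11.5%, against 12.4%, for the interaction. The medians of the list lay between 0.01 and 0.09 in the 5 comparisons.

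Map4k4, a kinase that can stand in for the MST kinases, was at 902, 701 and 777 CPM in p66High aggressive, 349, 312 and 392 CPM in p66Low aggressive, 646, 558 and 590 CPM in p66High parental, and 377, 360 and 372 CPM in p66Low parental tumours. It rose by 1.18 in p66High against p66Low aggressive tumours (SE 0.12, edgeR adjusted p = 0.000176) and by 0.69 in p66High against p66Low parental tumours (SE 0.12, edgeR adjusted p = 0.00401), and neither pair of groups overlapped. It too lies on chromosome 1, whose medians were 0.37 and 0.44 in these comparisons. Stk4, which encodes the MST1 kinase, was at 75.2, 70.5 and 66.1 CPM in p66High aggressive, 103, 123 and 86.2 CPM in p66Low aggressive, 77.0, 78.2 and 83.3 CPM in p66High parental, and 65.3, 69.2 and 63.6 CPM in p66Low parental tumours.

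Stk4 fell by 0.56 in p66High against p66Low aggressive tumours (SE 0.12, edgeR adjusted p = 0.00609) and rose by 0.66 in aggressive against parental p66Low tumours (SE 0.12, edgeR adjusted p = 0.00397), with an interaction of -0.83 (SE 0.16, edgeR adjusted p = 0.0110). All p66Low aggressive tumours had more Stk4 than any other tumour, as for Ankrd1. For Crim1 and Lats2 this held only for the lymph node rich libraries of that group. Stk4 is strongly expressed in lymphocytes. Without the lymph node rich libraries, with 1 p66Low aggressive tumour, these values were -0.27, 0.38 and -0.52 and none passed (edgeR adjusted p = 0.262, 0.139 and 0.150). The part of lymphocytes was not tested. Among the other calls, Fat4, an atypical cadherin upstream of the cascade, fell by 0.89 in aggressive against parental p66High tumours (edgeR adjusted p = 0.0210, lost in 5 of 12 fits without 1 tumour) with an interaction of -1.21 (adjusted p = 0.0173). With tumours sharing a title number summed both Fat4 calls were lost (edgeR adjusted p = 0.115 and 0.0541), and without the lymph node rich libraries the interaction was -0.82 (adjusted p = 0.238). In p66Low selection Tead4 rose by 0.55 and Tead2 fell by 0.44 (edgeR adjusted p = 0.0409 and 0.0395), both lost in 7 of 12 fits without 1 tumour. Both were also lost when only the 6 p66Low tumours were fitted (edgeR adjusted p = 0.0774 and 0.0936), and without the lymph node rich libraries they were 0.61 (adjusted p = 0.189) and -0.23 (adjusted p = 0.538). Summing tumours that share a title number ended the call of Tead2 (adjusted p = 0.0513), and so did scaling by library size alone (adjusted p = 0.0856).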

How the data were processed

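RNA was measured in 12 bulk tumours, 3 in each of 4 groups. The authors deposited whole-number read counts per gene, not normalized. Per the submitters' processing notes the tools were featureCounts 1.4.4, STAR 2.3.0e and Trimmomatic 0.32, and the build was mm10, with ribosomal RNA depleted stranded libraries per the labels' protocols. The annotation, strand setting and treatment of multi-mapping reads were not given in the sources used here, so overlapping genes are uncertain. Of 39017 genes, 96.4% matched GENCODE M21.

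The main test was that of edgeR 4.0.16 in R 4.3.3, with filterByExpr (19370 genes left), TMM scaling and the quasi-likelihood F-test, fitted to the 4 groups together (8 residual degrees of freedom). The threshold was a Benjamini-Hochberg adjusted p of 0.05 across the 19370 genes. SE is the absolute log2 difference over the square root of F. CPM uses TMM-scaled libraries, and CPM per kilobase the merged exon length. Floors of 3 counts cover counting error only. The fit was also run on simulated independent genes. That simulation held no chromosome-wide shift, lymph node cells or shared mice, so it does not check the fit for these.

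Alternatives were other scalings and filters, DESeq2 1.42.0, limma-voom (limma 3.58.1), a robust fit, fits of 6 tumours, summing of tumours whose titles share a number (2 tumours in each p66High group), and leaving out tumours. The members, lists and tests were chosen with earlier results of these data known. Named genes were the members, Shc1, Yap1, Wwtr1, up to 4 genes with the smallest p per list and comparison, and the 3 genes most like Ctgf, Cyr61 and Ankrd1. Where nothing says that tumours came from separate mice, p-values reflect only how much these samples spread, which may be technical.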

Additional observations from a re-analysis of the deposited data

Results flagged for a closer look

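The effect of selection in p66High tumours differed from that in p66Low tumours for 3 members, by the edgeR test of the difference itself. It was -2.98 on the log2 scale for Ankrd1, -1.46 for Crim1 and -0.74 for Lats2. The value for Ankrd1 stayed past the threshold in all 12 fits without 1 tumour (-3.28 to -2.70) and without the 3 lymph node rich libraries (-3.55, edgeR adjusted p = 0.0110), a fit in which the p66Low aggressive group is 1 tumour. For Crim1 and Lats2 the call was lost in 9 and 8 of these 12 fits, and without the lymph node rich libraries they were -0.74 (adjusted p = 0.330) and -0.56 (adjusted p = 0.248), again with 1 p66Low aggressive tumour.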

How the results depend on the processing

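No paired analysis was possible because the labels give no replicate numbers that groups share. Of 616 alternatives to the 27 member fold changes reported, 527 kept direction and side of the threshold, 76 lost the threshold, 13 gained it and 0 changed direction. Many of the 27 were not called and so could not lose the threshold, which raises the number kept. All losses fell on calls of Crim1, Amotl1, Nuak2 and Lats2, while the Ankrd1 calls lost none. The 36 other fold changes had 823 alternatives, of which 180 lost the threshold and 0 changed direction. The count of members called in p66High against p66Low aggressive tumours, 4, was 2 with tumours sharing a title number summed, 1 without the lymph node rich libraries and 1 to 4 without single tumours (1 without p66Low aggressive replicate 2 or p66High aggressive replicate 3, 2 without replicate 1 of either). For parental tumours, 2, it was 1 without a filter on low counts, 1 with such tumours summed, 0 without the lymph node rich libraries (edgeR, 5 members at an unadjusted p under 0.05) and 0 to 3 without single tumours. The 0 came without p66Low parental replicate 1 or 3, p66High parental replicate 1 or 3 or p66High aggressive replicate 2 (edgeR, 3 to 5 members at an unadjusted p under 0.05). For p66Low selection, 3, it was 1 without the lymph node rich libraries and 2 to 3 without single tumours (2 without p66Low parental replicate 1 or 3 or p66Low aggressive replicate 2). For p66High selection, 0, it was 0 to 1 without single tumours, the 1 being Cyr61 without p66High aggressive replicate 3. For the interaction, 3, it was 1 with such tumours summed, 1 without the lymph node rich libraries and 1 to 3 without single tumours (3 only without p66Low aggressive replicate 3 or p66High aggressive replicate 2). The median over the members ranged from -0.06 to 0.13 (aggressive), 0.26 to 0.35 (parental), 0.22 to 0.45 (p66Low selection), -0.18 to -0.06 (p66High selection) and -0.48 to -0.29 (interaction). Scaling by library size alone moved that of p66Low selection to 0.39 and that of the interaction to -0.46. Without the lymph node rich libraries the p66Low aggressive group is 1 tumour, assumed to vary like the other groups. Fitting only the 6 tumours compared gave 2 members in parental tumours, other ones than with all tumours. Fits that leave out a library have fewer samples, and the cause of other changes was not tested. Ankrd1 rests on 13 to 50 reads per tumour outside the p66Low aggressive group, which limits the precision of its differences.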
